A study of Mus musculus with 6 samples.

Results

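The nuclear-encoded respiratory chain genes were examined in 21EM15 cells, an epithelial line derived from the mouse lens, with and without knockdown of Tdrd7. Genes were chosen by their symbols, which begin with Nduf followed by a, b, c, s or v and a digit, Uqcr, Cox4 to Cox8 or Atp5, or are one of Sdha to Sdhd. The array carried 78 such genes on 118 probes. Of these, 70 genes on 97 probes were detected (p-value under 0.05) throughout the 3 arrays of control, of knockdown or of both, and these 70 are among the 9200 genes tested. The 3 control samples carried a lentivirus with GFP, and the 3 knockdown samples carried a lentivirus with an shRNA against Tdrd7. All 6 samples are of the same cell line, and no shRNA is named for the controls, so effects of the 2 constructs cannot be told apart from those of less Tdrd7. Whether the replicates came from separate cultures is not stated in the labels, and the spread behind every p-value may thus be technical. RNA was measured on 1-colour Illumina bead arrays, and levels are background-corrected, quantile-normalized log2 signals. Arrays 1, 2 and 3 are the controls and arrays 4, 5 and 6 the knockdown, in the column order of the scanner file, and these numbers are names only.

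The respiratory chain passes electrons from NADH (complex I) and succinate (complex II) through complex III to oxygen at complex IV, and ATP synthase (complex V) uses the proton gradient this builds. Most subunits are encoded in the nucleus and imported into mitochondria, while a few core membrane subunits are encoded by mitochondrial DNA. In the lens, mitochondria are kept in the epithelium and the outer fibre cells and are removed as fibres mature.

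Tdrd7, a gene for a Tudor domain protein of RNA granules, was lower on all 3 knockdown arrays. Its normalized levels were 9.38, 9.80 and 9.93 log2 units in control and 7.67, 7.46 and 8.42 in knockdown, which left 27.7% of the control level (log2 fold change -1.85 ± 0.28, SE, limma adjusted p = 0.76). Over the processing alternatives its adjusted p ran from 0.135 to 1.00. The share of probes detected per array was 37.2% to 38.8%, and array 4 had the lowest mean correlation with the other arrays, 0.957 against 0.971 to 0.976. Of 13 lens epithelium markers on the array 7 were detected on all 6 arrays, among them Pax6 and Cryab, while Foxe3, Krt18 and Epcam were detected on none. Of 8 mesenchymal markers 6 were detected on all 6 arrays, with Vim, Pdgfra and Col1a1 among them. Of 7 lens fibre markers 0 were detected on all 6 arrays, and the same held for the endothelial (4), muscle (5), macrophage (4) and neuronal (4) markers.

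Most respiratory chain genes gave a signal in these cells. The share of probes that met the detection rule was 82.2% for respiratory chain genes and 36.1% for the whole array. For complex I 33 of 34 genes were tested, for complex II 3 of 4, for complex III 6 of 7, for complex IV 12 of 17 and for complex V 16 of 16. Ndufa4 is counted with complex IV, where its protein is now placed, and Ndufs5-ps, a pseudogene whose symbol meets the rule, is counted with complex I. The untested genes fall into 2 kinds. Cox4i2, Cox6a2, Cox7b2, Cox8b and Cox8c encode isoforms of complex IV subunits that are known from particular tissues such as muscle, lung or testis. Ndufs1, Sdha and Uqcrfs1 encode subunits that every respiratory chain needs, and the only probe for Ndufs1 and for Sdha was detected on 0 of 6 arrays. The signal of the Ndufs1 probe lay between 57.9 and 67.1 intensity units and that of the Sdha probe between 57.1 and 62.8, below the array medians of 72.6 to 82.6. These signals give no level for those transcripts, since other probes of tested genes were also blank. For Sdhb, as an example, 1 of 3 probes was never detected. Cox6a2, the muscle isoform, was detected on 2 of 3 arrays in each group. Its signals were 89.9, 195 and 97.8 in control and 102, 236 and 115 in knockdown, with the highest value of each group on arrays 2 and 5.

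The main comparison asks whether these transcripts differ between knockdown and control. In limma's fit of 9200 genes, 0 of the 70 reached an adjusted p under 0.05, and the lowest adjusted p of a respiratory chain gene was 0.998. Over all genes tested 0% were called, so this count does not set the respiratory chain apart. At an unadjusted limma p under 0.05 there were 0 respiratory chain genes, against 3.29% of all genes, and the lowest unadjusted p was 0.059 (Ndufa12). The fitted change was below 0 for 41 genes and above 0 for 29, where 47.7% of all genes were below 0. The median log2 fold change was -0.028, against 0.014 for all genes. The sign of this median turned with the scaling of the arrays, to 0.013 with 75th percentile scaling (all genes 0.038) and 0.030 with no normalization between arrays (all genes 0.056). As these are bulk samples, fewer cells rich in a transcript and less of it per cell cannot be told apart.

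The intervals show how large a difference the arrays leave room for. The 95% confidence interval held 0 for all 70 genes. It lay within a 1.5-fold change in both directions for 42 of the 70 genes (60%), against 31.3% of all genes, and within a 2-fold change for 66 (94.3%), against 83.8%. The median half-width was 0.44 log2 units, a 1.36-fold change, against 0.50 for all genes. The 4 genes whose interval reached past 2-fold were Ndufa12, Ndufb4, Cox7b and Atp5md. The plot of fitted changes shows these wide intervals beside those of subunits such as Cox4i1 and Ndufa13.

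**Figure D1:**
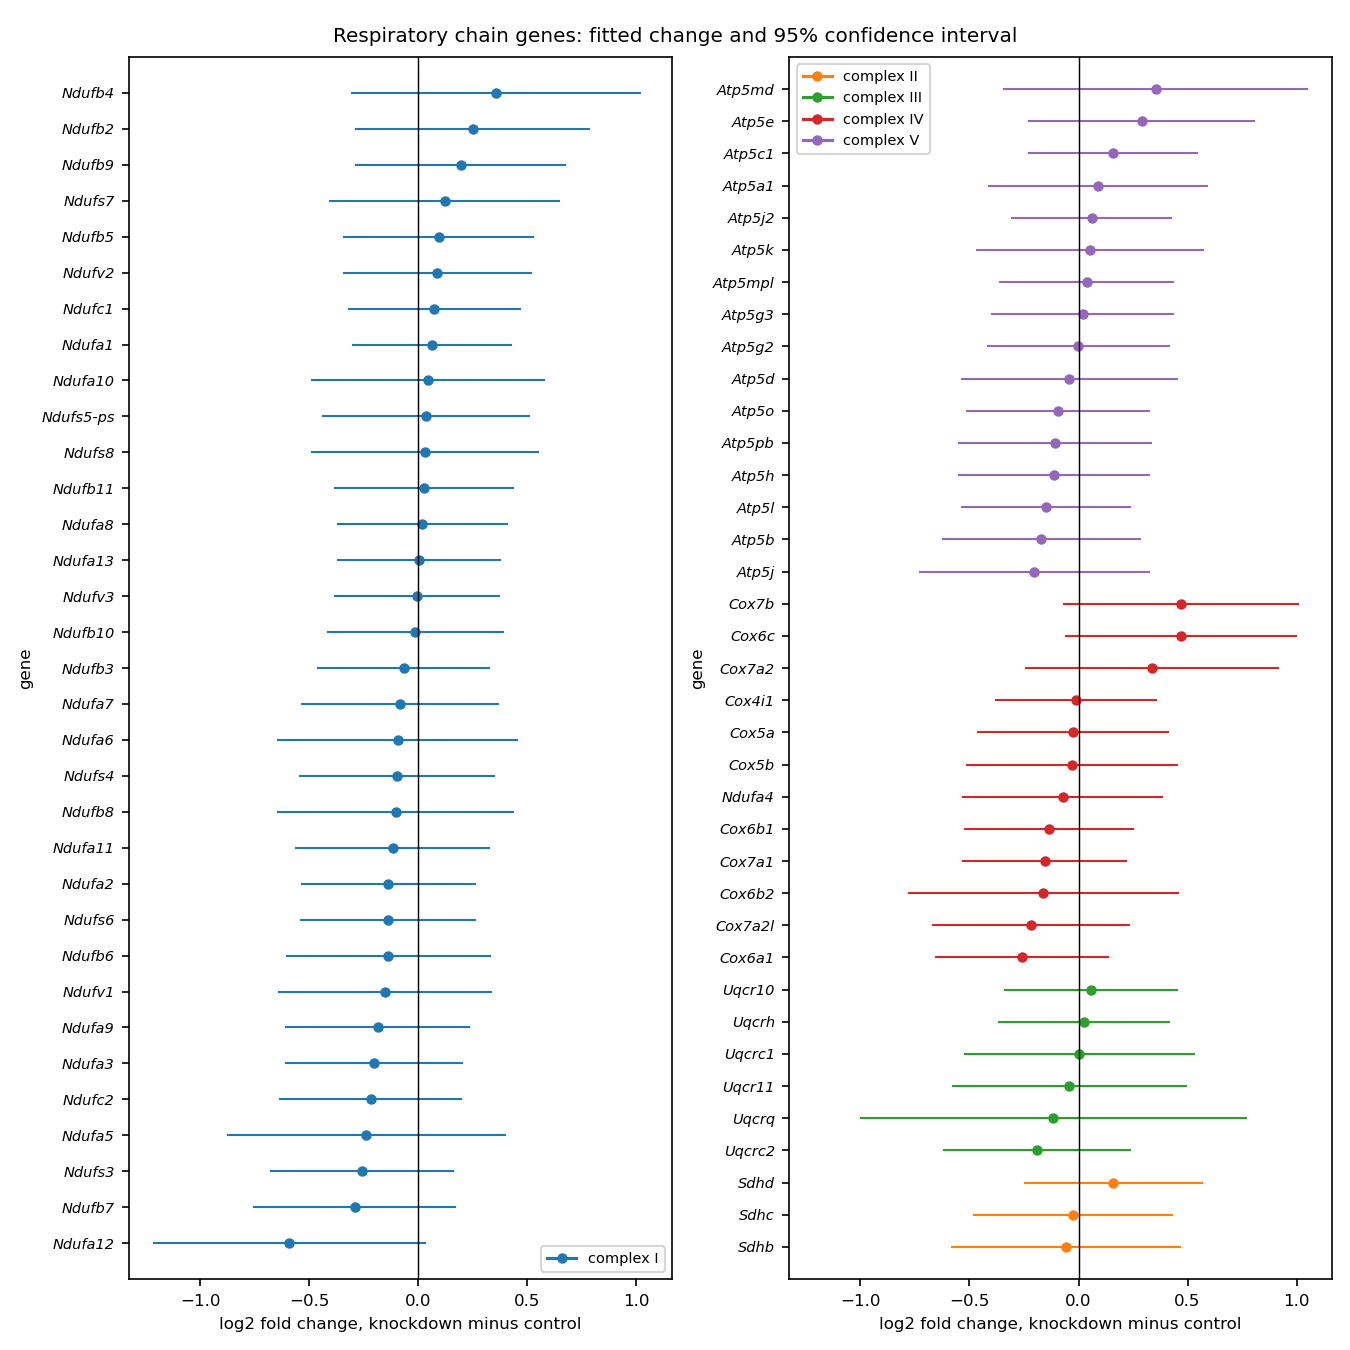
Fitted log2 fold change (knockdown minus control, x axis) of the 70 respiratory chain genes tested (y axis), with complex I on the left and complexes II to V on the right. Points are limma estimates and lines are 95% confidence intervals from 3 arrays against 3, and every interval holds 0.

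In complex I, which oxidises NADH, 19 of 33 genes were below control and 14 above, with a median log2 fold change of -0.068. Ndufa12, an accessory subunit, had the lowest value of the 70 genes. Its levels were 11.71, 11.66 and 11.33 log2 units on the control arrays and 10.58, 11.54 and 10.81 on the knockdown arrays. Arrays 4 and 6 lay below every control array, while array 5 lay inside the control range. The log2 fold change was -0.59 ± 0.27 (SE), with an interval from -1.21 to 0.029 and a two-sided exact permutation p of 0.2. Ndufb7, an accessory subunit of the membrane arm, was at -0.29 ± 0.20, with 8.51, 8.42 and 8.50 in control and 7.92, 8.52 and 8.11 in knockdown, so that array 5 again met the control level. At the other end were the membrane arm subunits Ndufb4 (0.36 ± 0.29) and Ndufb2 (0.25 ± 0.23). Ndufb4 was at 7.89, 8.12 and 7.57 in control and 8.04, 8.80 and 7.80 in knockdown. Array 5 alone stood above the controls for Ndufb4, and the other knockdown arrays lay within their range. Of the core subunits, which carry out electron transfer and are shared with bacteria, 5 were tested, with a median of 0.029. Ndufv1, the subunit that binds NADH, was at -0.15 ± 0.21, with 12.16, 12.70 and 12.44 in control and 12.02, 12.39 and 12.44 in knockdown. The groups overlapped for all 33 genes.

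Complex II, succinate dehydrogenase, is built of nuclear-encoded subunits alone. Sdhb, its iron-sulphur subunit, was at 10.82, 11.13 and 10.74 in control and 10.56, 11.23 and 10.72 in knockdown (log2 fold change -0.056 ± 0.23, SE). The lowest and the highest of these 6 levels were both on knockdown arrays. The membrane anchor subunit Sdhc was at 11.89, 12.48 and 12.21 against 12.11, 12.21 and 12.18 (-0.026 ± 0.20). For Sdhc the 3 knockdown arrays lay close together, inside the control range. The other anchor, Sdhd, was at 9.40, 9.37 and 9.45 against 9.54, 9.78 and 9.37 (0.16 ± 0.18). Intervals for all 3 tested subunits lay within a 1.5-fold change.

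Complex III passes electrons from coenzyme Q to cytochrome c, and 3 of its 6 tested genes were below control. The core proteins Uqcrc1 and Uqcrc2 were at 0.0044 ± 0.23 and -0.19 ± 0.19 log2 units (SE). Uqcrc2 was at 12.74, 13.21 and 13.12 in control and 12.79, 12.86 and 12.84 in knockdown, so the knockdown arrays lay close together, below 2 of the controls and above the third. Uqcrc1 was at 11.36, 11.65 and 11.62 in control and 11.14, 11.89 and 11.61 in knockdown, with the extremes on arrays 4 and 5. The hinge protein gene Uqcrh was at 0.027 ± 0.17 and the small subunit gene Uqcr10 at 0.058 ± 0.17. Uqcrq, another small subunit, varied most within both groups. It was at 7.74, 7.58 and 6.81 in control and 8.06, 6.99 and 6.75 in knockdown, and its log2 fold change of -0.11 had the largest SE of the complex, 0.38.

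Complex IV, cytochrome c oxidase, held all 3 genes whose groups did not overlap. Over all genes tested the groups did not overlap for 7.83%, and 3 of 70 is 4.29%. Cox6a1, the widely used isoform of subunit 6a, was at 12.97, 13.19 and 13.13 in control and 12.69, 12.88 and 12.94 in knockdown. Every knockdown array was below every control array, but the gap between the nearest arrays was small beside the spread (-0.26 ± 0.17, interval -0.65 to 0.13). Cox7a1, the heart and muscle isoform of subunit 7a, was at 6.50, 6.31 and 6.33 against 6.15, 6.23 and 6.29 (-0.16 ± 0.16). Among all genes, 3.5% were lower in this way and 4.33% higher. Cox7b was the 1 gene that was higher, at 7.48, 7.57 and 7.34 in control and 7.76, 8.40 and 7.64 in knockdown (0.47 ± 0.23, interval -0.066 to 1.01). Its exact permutation p was 0.1, the smallest that 3 arrays against 3 can give, as it was for Cox6a1 and Cox7a1. Groups that do not overlap always give this value, so it adds nothing to the separation. With no normalization between arrays the groups overlapped for all 3 genes, and with 75th percentile scaling or the authors' processed values they overlapped for Cox6a1. Without array 5 the Cox7b value was 0.24, and without array 6 it was 0.62.

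Cox6c had a like fitted change, 0.47 ± 0.23 log2 units (SE), with overlap. Its knockdown arrays were at 13.70, 13.54 and 13.49, and the controls at 13.56, 12.94 and 12.82, so control array 1 lay at the knockdown level. Without control array 1 the value was 0.70. In the authors' processed values its groups did not overlap, and its unadjusted limma p was under 0.05 there, with 75th percentile scaling, with an intensity trend in eBayes and with array weights, while its adjusted p over all alternatives ran from 0.53 to 1.00. Cox4i1 and Cox5a, subunits found in every tissue, were at -0.012 ± 0.16 and -0.023 ± 0.19. Both turned above 0 with 75th percentile scaling (0.042 and 0.040), with cyclic loess (0.042 and 0.033) and with no normalization between arrays (0.060 and 0.058). Cox4i1 was at 13.64, 13.77 and 13.75 in control and 13.74, 13.75 and 13.63 in knockdown, which is nearly the same range. Ndufa4 was at 13.23, 13.44 and 13.31 against 12.95, 13.51 and 13.31 (-0.072 ± 0.20), with the lowest and highest level on arrays 4 and 5. Cox7a2l, which helps to join complexes III and IV into supercomplexes, was at 12.02, 12.15 and 12.34 against 11.96, 11.71 and 12.20 (-0.22 ± 0.20). It was 1 of 3 genes that were lowest on array 5.

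In complex V, ATP synthase, 8 of 16 genes were below control, and the median was 0.0097. In its catalytic head, the alpha subunit gene Atp5a1 was at 11.19, 11.37 and 11.20 log2 units in control and 10.96, 11.68 and 11.38 in knockdown (0.089 ± 0.22, SE). The beta subunit gene Atp5b was at 14.71, 14.86 and 14.76 against 14.28, 14.80 and 14.74 (-0.17 ± 0.20). For Atp5b array 4 alone lay below the controls, and arrays 5 and 6 lay within their range. Atp5e, the epsilon subunit of the central stalk, was at 8.18, 8.47 and 8.09 against 8.55, 8.87 and 8.18 (0.29 ± 0.22). Atp5j, coupling factor 6 of the peripheral stalk, was at 13.17, 13.07 and 13.16 against 12.46, 13.22 and 13.10 (-0.20 ± 0.23). Its value too rested on array 4, without which it was 0.029. Atp5md, a small membrane subunit, was at 7.42, 7.46 and 7.10 against 7.68, 8.29 and 7.08 (0.35 ± 0.30). Its highest and its lowest level were both on knockdown arrays.

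**Figure D2:**
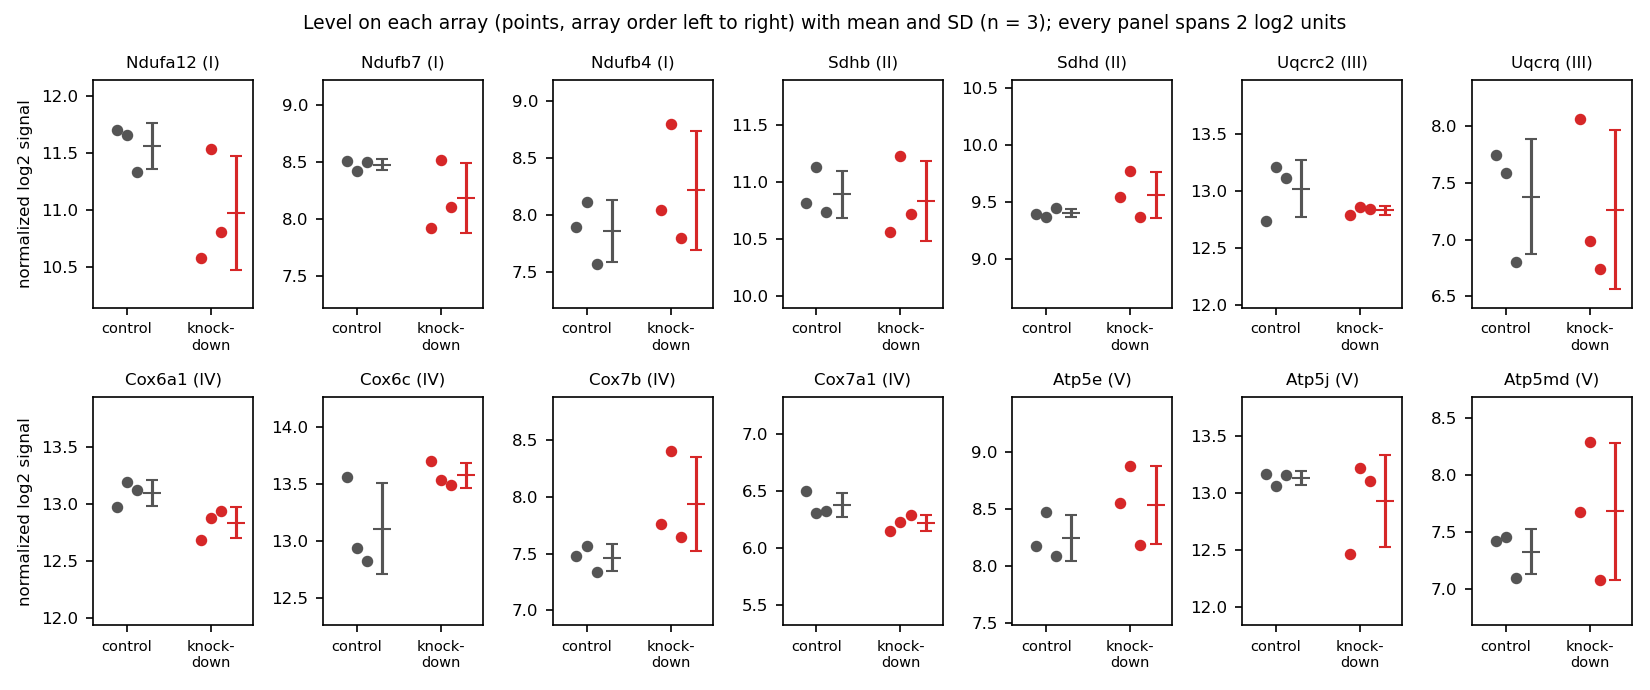
Normalized log2 signal (y axis, every panel spans 2 log2 units) of 14 respiratory chain genes on the 3 control (grey) and 3 knockdown (red) arrays, with the mean and SD (n = 3) beside the points. Groups are separate for Cox6a1, Cox7a1 and Cox7b and overlap for the other genes, and points run in array order from left to right, so array 5 is the middle red point.

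The genes varied together between arrays, and this variation ran across the groups. On each array the deviation of a gene from its own mean over the 6 arrays was taken. The median deviation of the 70 genes was 0.11 log2 units on control array 2 and 0.18 on knockdown array 5. It was -0.070 on control array 1, 0.018 on control array 3, -0.12 on knockdown array 4 and -0.092 on knockdown array 6. On array 2, 59 of the 70 genes were above their mean (84.3%), and on array 5, 57 were (81.4%). Over all genes tested the shares were 49.3% and 52.9%. On array 6 only 17 genes were above their mean (24.3%). Array 5 was the highest of the 6 for 35 of the 70 genes (50%), against 19.7% of all genes. Array 4 was the lowest for 29 (41.4%), against 25.9% of all genes.

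In every pair of arrays of the same group the median difference was larger in size than the median log2 fold change between the groups, -0.028. In some pairs it was larger by little. The group value compares means of 3 arrays, which vary less than single arrays. The median difference between knockdown arrays 5 and 4 was 0.31 log2 units, with 61 of 70 genes higher on array 5, where 51.2% of all genes were. Array 6 was below array 5 for 61 genes too, with a median difference of -0.22. Among controls, array 2 was above array 1 for 55 genes, with a median of 0.16. The medians were smaller for array 6 minus array 4 (0.045, 37 genes higher), array 3 minus array 1 (0.062) and array 3 minus array 2 (-0.13). The fitted group difference was smaller than the range within each of the groups for 57 of the 70 genes, and this held for 7177 of the 9200 genes tested. Without array 4 the median log2 fold change of the 70 genes was 0.025, and without array 5 it was -0.099. Complexes I, II, IV and V had their highest mean deviation on array 5 (0.17, 0.23, 0.12 and 0.23), and complex III on array 2 (0.11 against 0.084 on array 5). The median correlation over the 6 arrays was 0.43 between genes of the same complex (732 pairs) and 0.37 between genes of different complexes (1683 pairs). These correlations describe genes measured on the same 6 arrays, which share normalization, and are given with no test. Sdhb followed the mean of the other genes most closely (r = 0.97), and Ndufb11 ran against it (r = -0.61).

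**Figure D3:**
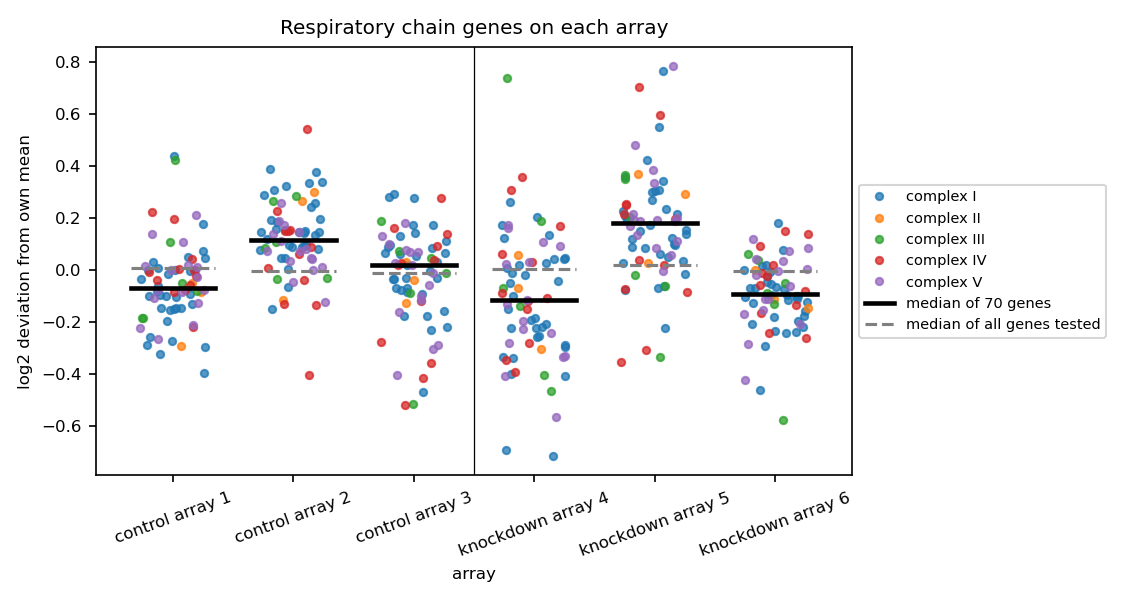
Deviation of each of the 70 genes from its own mean over the 6 arrays (y axis, log2 units), by array (x axis) and coloured by complex. Black lines are the medians of the 70 genes, which are highest on arrays 2 (0.11) and 5 (0.18), and dashed grey lines are the medians of all 9200 genes tested.

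Other genes moved with these arrays. On array 5, 13 of 14 citric acid cycle genes and 13 of 15 mitochondrial membrane genes were above their mean. So were 28 of 38 assembly factors, 7 of 9 coenzyme Q genes and 4 of 4 subunits outside the symbol rule. Of the regulators and factors of mitochondrial DNA expression, 10 of 18 were. On array 2 the counts in this order were 10, 9, 24, 7, 3 and 10. Most of these lists thus shared the high level on array 5 with the respiratory chain genes. The 4 proliferation markers tested (Top2a, Mcm3, Mcm5 and Pcna) had a mean deviation of -1.25 log2 units on array 4 and 0.84 on array 5, with 0 of 4 above their mean on array 4 and 4 of 4 on array 5. On control arrays 1 and 2, however, they were at 0.59 and 0.086, the reverse of the order of the respiratory chain genes there. Their summed signal ran from 2982 to 5059 intensity units in control and from 1940 to 6081 in knockdown. The 6 mesenchymal markers tested were all above control (median log2 fold change 0.61), and their mean deviation was 1.13 on array 4 and -0.28 on array 5, and at -0.82 on control array 2. The signals of the mesenchymal list summed to 29809 to 36332 intensity units in control and to 30119 to 56911 in knockdown. Most of each sum came from Vim, whose fitted change was 0.052 ± 0.24 log2 units (SE). The 7 lens epithelium markers tested had a median log2 fold change of -0.21, and their mean deviation was 0.31 on array 4 and -0.30 on array 5. Of these, 3 had an unadjusted limma p under 0.05 (lowest adjusted p = 0.98), against 3.29% of all genes. Itgb4 and Sox2 were lower with no overlap, as were 3.5% of all genes. Pax6, the other of the 3, was higher in knockdown, at 1.00 ± 0.33 log2 units (SE), with overlap. Its levels were 6.53, 5.47 and 5.45 in control and 7.22, 6.73 and 6.51 in knockdown. The lowest detected level of any probe was 5.33 on control array 2 and 5.28 on control array 3, so Pax6 lay near the floor there. The lens epithelium list summed to 6071 to 6805 intensity units in control and to 3830 to 10065 in knockdown. Most of each of these sums came from Cryab, at 4486 to 4857 in control and 2473 to 7998 in knockdown. All these sums are of deposited signals before normalization, and those of the mesenchymal and lens epithelium lists include undetected genes. The part of these differences in the result was not tested.

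**Figure D4:**
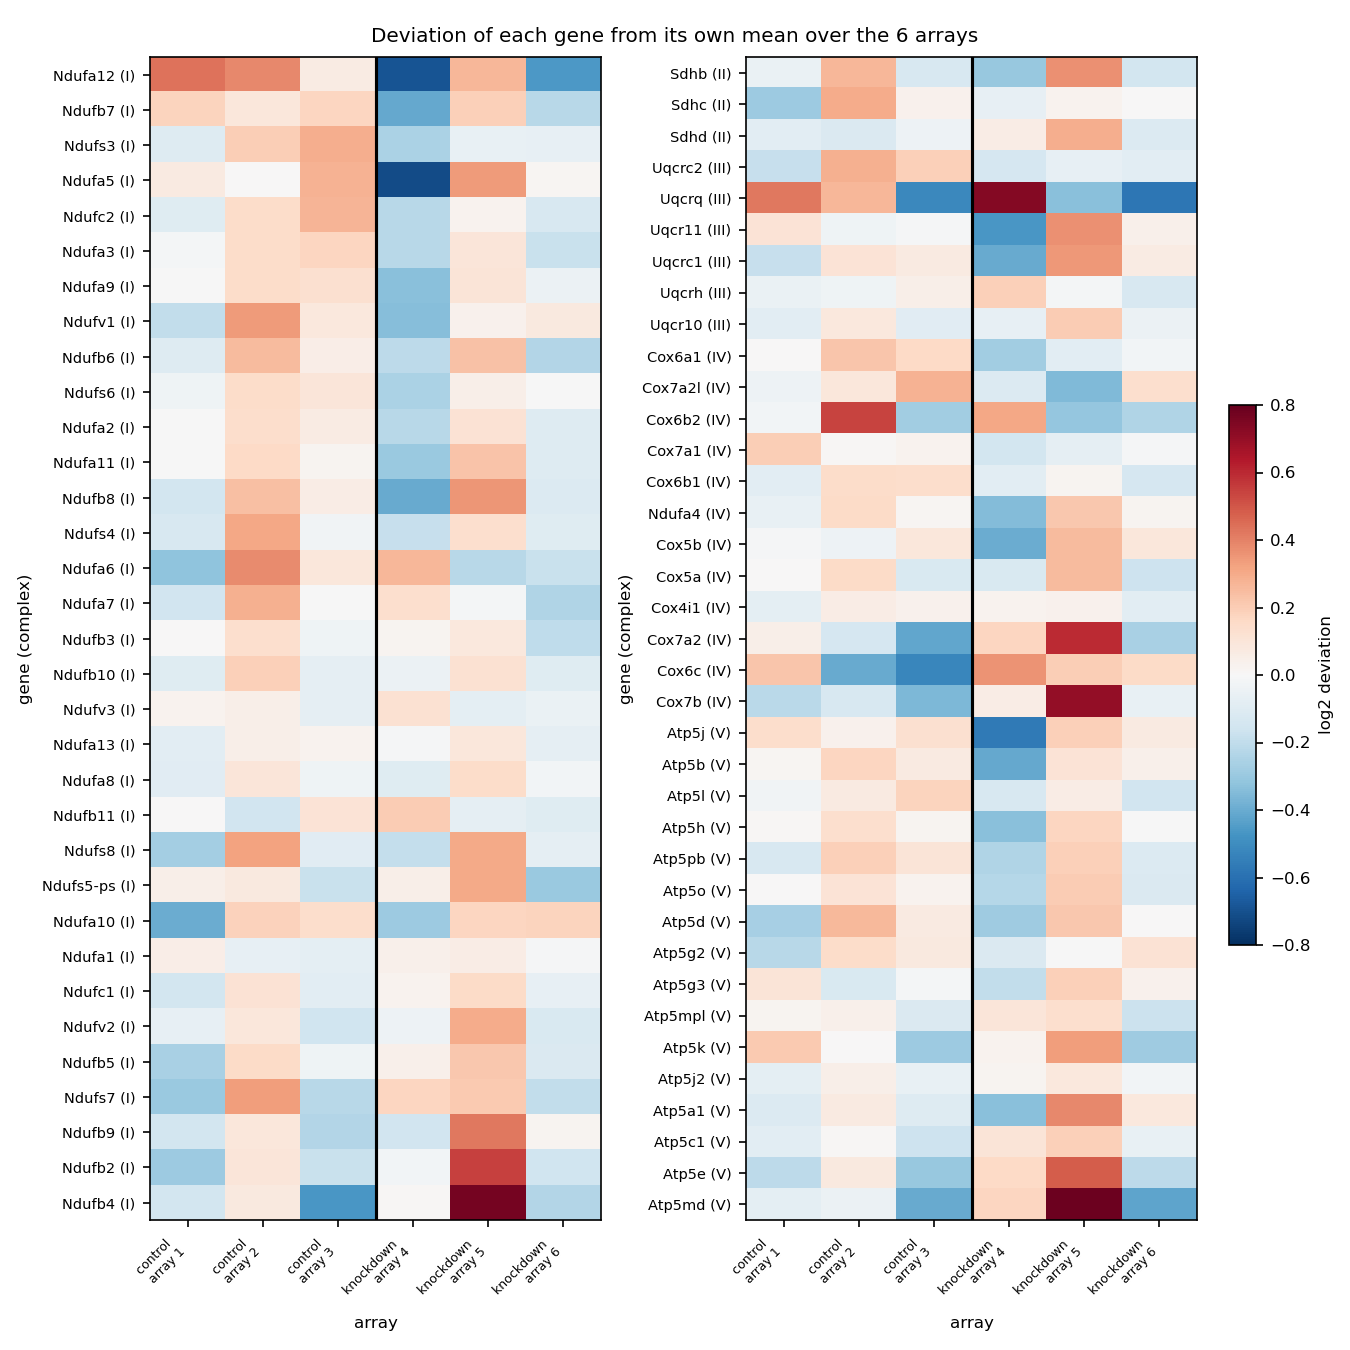
Log2 deviation of each of the 70 genes (rows, complex in brackets, ordered by fitted change within a complex) from its own mean over the 6 arrays (columns), with the vertical line between control and knockdown. Most rows are red on control array 2 and knockdown array 5, and many are blue on knockdown array 4, where 45 of 70 genes lie below their mean.

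Genes at low signal followed a somewhat different course, in a split at a mean of 10 log2 units that was made after the values were seen. The 13 respiratory chain genes below it, Cox7b, Ndufb4, Ndufb2, Atp5e and Atp5md among them, had a median log2 fold change of 0.16 with 9 above 0. The 57 brighter genes had a median of -0.043 with 20 above 0. For all genes tested the medians were 0.023 below the split and -0.0046 above it. On array 4 the dimmer genes had a median deviation of 0.060 and the brighter ones -0.18. No test was made of this split.

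As the genes varied together between arrays, their promoters were searched for 3 motifs of factors known to act on respiratory genes. The windows are RefSeq promoters of build GRCm38.p6, from 250 bases before to 50 after a gene's start, and 60 of the 70 genes had 65 such windows. The NRF1 motif, spelled in capitals in the Cox6a1 window printed here and its own reverse complement, was in 5 of the 65 windows (7.69%), against 2.04% of the windows of all genes tested and 0.971% of all windows. The YY1 motif, in capitals in the Ndufa9 window and searched on either strand, was in 4 (6.15%), against 1.54% and 0.633%. The ETS motif CCGGAAGT, on either strand, to which GABP binds, was in 4 (6.15%), against 8.4% and 3.89%. A match describes the letters and shows no binding, and no match says only that these letters are absent from the window. Windows of 4 genes are shown as examples of the motifs, among them Cox6a1, whose groups did not overlap, and Uqcrc1, whose extremes were on arrays 4 and 5. Correlations with the mean of the other respiratory chain genes were 0.36 for Cox6a1, 0.78 for Uqcrc1, 0.68 for Ndufa9 and -0.24 for Uqcrh. Whether a motif goes with the shared variation was not tested. Motifs are in capitals, read 5′ to 3′ on the gene's strand.
Cox6a1, NRF1, chr5:115348909-115349208, minus strand: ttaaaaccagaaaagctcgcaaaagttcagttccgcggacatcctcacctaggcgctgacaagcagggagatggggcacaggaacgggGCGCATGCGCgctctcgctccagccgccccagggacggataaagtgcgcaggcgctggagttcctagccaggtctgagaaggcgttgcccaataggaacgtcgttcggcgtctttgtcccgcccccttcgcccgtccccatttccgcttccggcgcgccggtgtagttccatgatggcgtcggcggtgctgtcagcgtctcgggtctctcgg
Uqcrc1, NRF1, chr9:108936398-108936697, plus strand: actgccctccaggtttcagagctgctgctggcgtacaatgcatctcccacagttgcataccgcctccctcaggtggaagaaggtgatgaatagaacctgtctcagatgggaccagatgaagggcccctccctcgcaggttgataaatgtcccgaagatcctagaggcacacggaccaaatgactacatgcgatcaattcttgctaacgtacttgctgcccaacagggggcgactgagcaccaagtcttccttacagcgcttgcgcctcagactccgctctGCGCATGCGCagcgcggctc
Ndufa9, YY1, chr6:126849095-126849394, minus strand: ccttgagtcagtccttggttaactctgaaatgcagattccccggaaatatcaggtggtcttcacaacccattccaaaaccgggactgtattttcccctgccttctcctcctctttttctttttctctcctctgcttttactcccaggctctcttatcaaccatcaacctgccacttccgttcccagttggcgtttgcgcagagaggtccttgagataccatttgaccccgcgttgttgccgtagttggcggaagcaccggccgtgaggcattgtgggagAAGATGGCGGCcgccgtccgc
Uqcrh, ETS in reverse complement, chr4:116075021-116075320, minus strand: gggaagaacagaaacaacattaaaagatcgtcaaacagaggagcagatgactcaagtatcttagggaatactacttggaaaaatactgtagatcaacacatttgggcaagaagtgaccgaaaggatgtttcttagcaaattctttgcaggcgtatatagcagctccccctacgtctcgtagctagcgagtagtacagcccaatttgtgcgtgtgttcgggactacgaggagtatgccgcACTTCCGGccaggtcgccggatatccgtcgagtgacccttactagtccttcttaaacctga
The NRF1 match in Uqcrc1 and the YY1 match in Ndufa9 lie past the gene's start, the ETS match in Uqcrh just before it, and the NRF1 match in Cox6a1 farther upstream. Ndufa9 was at -0.19 ± 0.18 log2 units (SE) and Uqcrh at 0.027 ± 0.17, both with overlap.

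Several genes had more than 1 probe that met the detection rule, 22 in all. Fitted each by itself, 0 of the 97 probes passed an adjusted p of 0.05 in limma over the 16349 probes, of which 0.00612% passed. For 13 of the 22 genes all probes had the same sign. The widest disagreements were in Ndufc2, an accessory subunit of complex I, and in Atp5pb, a subunit of the peripheral stalk. The bright probe of Ndufc2 was at -0.22 and the dim one at 0.56 log2 units. The dim probe was detected on 1 of 3 control arrays, and its deposited signals were 119, 89.2 and 87.8 intensity units in control and 135, 149 and 87.1 in knockdown, close to the array medians. For Atp5pb 2 bright probes were at -0.11 and -0.12 and a dim one at 0.53. That dim probe was the 1 respiratory chain probe with an unadjusted limma p under 0.05 (0.040, adjusted p = 1.00), where 3.23% of all probes were. Its groups did not overlap after normalization, as for 7.79% of all probes, but its deposited signals did, at 186, 142 and 138 intensity units in control and 205, 268 and 149 in knockdown. By contrast the 2 probes of Cox6a1 were at -0.26 and -0.21, and those of Sdhb at -0.056 and -0.047.

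In the lists of other genes of the pathway 0 passed the adjusted limma threshold, as over all genes (0%), and 0 had an unadjusted p under 0.05. Of the subunits and carriers that the symbol rule leaves out, 4 were tested. Ndufab1, the acyl carrier protein that is also a complex I subunit, was at -0.071 ± 0.21 log2 units (SE) and Cycs, cytochrome c, at 0.070 ± 0.33. Of 38 assembly factors 22 were above control and 16 below, with a median of 0.027, from Cox19 at -0.33 ± 0.18 to Cox11 at 0.46 ± 0.25, both of which help to supply copper to complex IV. Of 18 regulators and factors of mitochondrial DNA expression 9 were above and 9 below, with a median of -4.1e-04. They ranged from the methyltransferase Tfb1m (-0.26 ± 0.28) to the mitochondrial DNA helicase Twnk (0.43 ± 0.22). The brightest probes of Ppargc1a, a coactivator of mitochondrial biogenesis, and of Yy1, the factor of the motif described here, were detected on 0 of 6 arrays. As for Ndufs1 and Sdha, a blank probe gives no level for the transcript, so absence of Ppargc1a or Yy1 is not shown. Of 14 genes of the citric acid cycle and pyruvate dehydrogenase 6 were above, with a median of -0.011. Ogdh was lowest at -0.32 ± 0.22, and Dld, the dehydrogenase subunit that pyruvate and oxoglutarate dehydrogenase share, was highest at 0.56 ± 0.25. The groups did not overlap for Dld and 2 more of these 14, all higher in knockdown, which is 21.4% of the list. Over all genes tested the groups did not overlap for 7.83%, with 4.33% higher and 3.5% lower. In the lists besides this one the groups did not overlap for 1 of the 18 regulators and factors of mitochondrial DNA expression, and for 0 genes of every other list. Of 9 coenzyme Q genes 7 were above control (median 0.066), with Coq7 at -0.21 ± 0.28 and Coq4 at 0.35 ± 0.22 as the extremes. Of 15 genes of mitochondrial membranes and transport 9 were below (median -0.074), from the import pore gene Tomm40 (-0.44 ± 0.41) to the inner membrane import gene Timm17b (0.42 ± 0.22). Timm17b met the detection rule only through the knockdown arrays, where it was higher, and was detected on 2 of 3 control arrays. Its deposited signals were 110, 98.9 and 84.5 intensity units in control and 134, 107 and 101 in knockdown. The array medians were 72.6 to 82.6.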

How the data were processed

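RNA from 6 samples was measured on Illumina bead arrays with 45281 probes. The deposited scanner table holds an intensity and a detection p-value per probe, per the file headers. A second deposited table holds the authors' processed intensity values, each column a straight line of a scanner column. How the scanner was set is not stated. Scanner columns name the group but not the replicate. Probes were named through the platform annotation (34885 with 1 symbol, 18 with several, 10378 with none). In limma 3.58.1 (R 4.3.3), neqc corrected background from the detection p-values, quantile-normalized and added an offset of 16. Probes with a detection p-value under 0.05 on all arrays of a group were kept, the brightest standing for its gene, and lmFit and eBayes were fitted with Benjamini-Hochberg adjustment over 9200 genes. The fit was tested on simulated data. Exact permutation tests were two-sided. Precision is limited by 3 arrays a group.

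The genes and lists were chosen with earlier results of these data known. Named were the 2 highest and 2 lowest genes of each complex, a set of main subunits, genes whose groups do not overlap and the extremes of each list. Genes named for probes, detection, motifs or covariation were chosen after their values were seen. Figures were drawn with matplotlib 3.10.9 (Python 3.11.15).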

Additional observations from a re-analysis of the deposited data

How the results depend on the processing

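The number of respiratory chain genes past an adjusted limma p of 0.05 was 0 under every alternative run, and 0 to 2 passed at an unadjusted p under 0.05. Over all features 0 were called, except that 1 probe was called with every probe fitted by itself. The count of respiratory chain genes whose groups do not overlap was 3, with 7.83% of all genes. It was 0 with no normalization between arrays (2.17% of all genes) and 5 of 78 with no filter on dim probes (8.86%). With every probe by itself it was 6 of 97 probes, 2 of them for Cox6a1 (7.79% of all probes). Leaving out 1 array gave 4 to 16 such genes, where groups of 2 and 3 separate more easily (10.4% to 20.9% of all genes). It was 15 without control array 1, 10 without control array 2, 16 without knockdown array 5 and 10 without knockdown array 6. The median of the 70 genes was -0.054 with the authors' processed values and 0.030 with no normalization between arrays, and leaving out 1 array gave -0.099 to 0.030.

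Of 27 named genes 16 kept their sign throughout. With 75th percentile scaling Cox4i1 was at 0.042, Cox5a at 0.040 and Sdhc at 0.0096. With cyclic loess Cox4i1 was at 0.042 and Cox5a at 0.033. With no normalization between arrays Cox4i1 was at 0.060, Cox5a at 0.058, Sdhb at 0.014 and Sdhc at 0.027. With array weights Cox5a was at 0.0081, Ndufa4 at 0.0074, Sdhb at 0.028 and Uqcrh at -0.079. Uqcrc1 was at -0.00092 in the authors' values, with or without the replicate block. Leaving out 1 array gave -0.081 to 0.28 for Atp5a1, -0.35 to 0.029 for Atp5j, -0.054 to 0.027 for Cox4i1, -0.15 to 0.054 for Cox5a, -0.20 to 0.082 for Ndufa4 and -0.25 to 0.082 for Sdhb. It gave -0.18 to 0.12 for Sdhc, -0.030 to 0.11 for Uqcr10, -0.17 to 0.21 for Uqcrc1, -0.061 to 0.099 for Uqcrh and -0.51 to 0.14 for Uqcrq. The cause of these changes was not tested.

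The labels give both groups the replicate numbers 1 to 3. Each gene's group mean was subtracted from the authors' values, and the deviations left were correlated between control and knockdown samples. For same-numbered samples these correlations were -0.10, 0.13 and 0.59, and for samples of different numbers they ran from -0.49 to 0.23. These values do not settle whether same-numbered samples are pairs. The main fit took no pairs, as the labels do not say that a number marks a shared culture or day. With the replicate block on the authors' values 0 genes were called, as without it, and the genes at an unadjusted limma p under 0.05 went from 257 to 431. With group means subtracted, not every sample correlated best with its own number. A slide block was not run, as the sample titles and column headers used here name no slide.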

Other observations

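In the authors' processed values, which carry the replicate numbers of the labels, the respiratory chain genes stood high in replicate 2 of both groups. By their values, these samples are straight lines of control array 2 and knockdown array 5. The pattern is therefore the one described for those arrays, from the same measurements, and is not separate support for it. Of the 70 genes, 63 were above their own mean in control replicate 2 (90%) and 61 in knockdown replicate 2 (87.1%). In replicate 1 the counts were 14 in control and 13 in knockdown, and in replicate 3 they were 39 and 15. Over all genes tested the share above the mean was 44.1% to 55.6% in each sample. The median difference of knockdown minus control between same-numbered samples was -0.073, 0.025 and -0.051 log2 units for replicates 1, 2 and 3. Of the 70 genes, 44, 31 and 50 were lower (62.9%, 44.3% and 71.4%). Over all genes tested the medians were -0.046, 0.027 and -0.0069, with 55.2%, 45.9% and 51.4% lower. The numbers are not shown to mark a shared culture or day.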
